A study of Limonium bicolor with 5 samples.

Results

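The CAPRICE-type single-repeat MYB repressors were followed through the development of the true leaf of Limonium bicolor, a salt-secreting plant. The members were chosen by locus: the rows of the deposited table paired with the Arabidopsis genes CPC (AT2G46410), ETC1 (AT1G01380), TRY (AT5G53200) and CAPRICE-like MYB3 (AT4G01060, CPL3 below). All 4 loci were found, each as 1 Limonium gene among 18327, and all 4 reached 5 RPM in at least 1 stage. The table gives symbols for none of them; it describes CPL3 as CAPRICE-like MYB3 and the others as homeodomain-like superfamily proteins, and the symbols follow the Arabidopsis loci. Poly(A) RNA had been sequenced from leaves raised in tissue culture, with no genetic or chemical treatment named in the labels. The 5 stages ran from undifferentiated leaves (A) through leaves with salt glands (B), with stomata (C) and with a differentiated epidermis (D) to mature leaves (E). Pools of about 5000, 4000, 2000, 1000 and 1000 leaves were used, in that order. Each stage is 1 column of values, so there was no replicate error and no p-value was computed. Whole leaves were pooled, so fewer cells of a type and less RNA per cell cannot be told apart.

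In Arabidopsis these small proteins carry a single MYB repeat and no activation domain. They bind the bHLH proteins GL3 and EGL3 in place of the R2R3 MYB activators GL1, WER and MYB23, and so take apart the complex that those activators form with bHLH proteins and the WD40 protein TTG1. That complex turns on GL2, which promotes trichome fate in the shoot and the hairless fate in the root epidermis. It also turns on several of the repressors themselves, which can move to neighbouring cells and keep those cells from taking the same fate. Limonium leaves bear salt glands, and the roles given here are those known from Arabidopsis.

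Values are RPM: a gene's reads divided by the library total, on a fixed common scale, with no division by gene length. For that reason levels of one gene were compared between stages and levels of different genes were not compared. A difference was called when it reached 1 on the log2(RPM + 1) scale and the higher stage reached 5 RPM, among 18165 genes that reached 1 RPM in some stage. Folds are ratios of RPM, and the interval after a fold or a level is the exact 95% interval from the reads behind it, which covers counting error only. The libraries held 5939374 reads in stage A and between 12945184 and 16556653 in the others, and 3 reads stood for 0.505 RPM in stage A and for 0.181 to 0.232 RPM elsewhere. Stage C stood apart by Arabidopsis chromosome. Loci of chromosome 1 held 40.4% of its reads, against 25.3% in stage B and 28.3% in stage D, and loci of chromosome 5 held 15.1%, against 24.6% and 22.0%. ETC1 lies on chromosome 1, CPC on chromosome 2, CPL3 on chromosome 4 and TRY on chromosome 5. The 4 leaf mesophyll markers were all detected, with a summed level from 432 RPM (stage A) to 31139 RPM (stage D). From stage A to stage E the 4 guard cell markers summed to 87.2, 59.1, 61.0, 80.3 and 144 RPM. From stage B to stage C, FAMA went from 10.4 to 4.41 RPM, HT1 from 23.1 to 11.3 RPM and KAT1 from 15.0 to 5.46 RPM. MYB60, a locus of chromosome 1, rose from 10.6 to 39.8 RPM. Stage C was thus named by its label, and its guard cell sum was below those of stages A, D and E. The shoot meristem markers STM and KNAT1 summed to 14.8 RPM in stage A and to 1.39 RPM or less in every other stage, where stages C and D had both at 3 reads or fewer. Of the 4 root hair markers 3 were measured, and they summed to 53.3 RPM in stage C and to between 2.16 and 4.41 RPM in the other stages. Expansin A7 made up most of the stage C sum, at 694 reads, and had 3 reads in stage A and 0 in stages B, D and E. RSL4 had 61 reads in stage C and 6 or fewer in the others, whereas COBL9 was lowest in stage C, at 6 reads against 22 to 67. Expansin A7 and RSL4 are loci of chromosome 1 and COBL9 is a locus of chromosome 5, so their directions were those of the chromosome skew. The part of these shifts in the results below was not tested.

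CPC, which in Arabidopsis moves between root epidermal cells and promotes hair fate while it holds back trichomes, was high in young leaves. Its level was 70.7 RPM in stage A, 52.2 RPM in stage B, 10.1 RPM in stage C, 12.1 RPM in stage D and 35.9 RPM in stage E, from 145 to 865 reads. Stages A and B were the highest, stages C and D the lowest, and the mature leaf lay between them. The highest stage was 6.97-fold (5.76 to 8.47) above the lowest. Neighbours in the order of levels, from A through B, E and D to C, differed by more than counting error except stages D and C, whose ratio was 1.19 (0.957 to 1.49).

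TRY, which in Arabidopsis leaves keeps trichomes from forming next to each other, had high values at both ends of the series. It stood at 32.5 RPM in stage A, 18.1 RPM in stage B, 3.29 RPM in stage C, 14.2 RPM in stage D and 28.8 RPM in stage E. Stage C rested on 47 reads and the other stages on 193 to 373. The lowest stage was 9.88-fold (7.15 to 13.9) below the highest, the widest range of the 4 genes on the log2(RPM + 1) scale, at 2.96. Stages A and E could not be separated by counting error, with a ratio of 1.13 (0.943 to 1.35). The order was A, E, B, D and C, and all other neighbours in it differed by more than counting error.

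CPL3, also called ETC3, acts with CPC and TRY in trichome spacing in Arabidopsis and was a gene of the late stages here. It stood at 5.22 RPM in stage A, 5.92 RPM in stage B, 3.85 RPM in stage C, 15.2 RPM in stage D and 28.5 RPM in stage E. Stage A rested on 31 reads and stage E on 369. The mature leaf was highest and stage D second, and the 3 earlier stages lay below both. The ratio of stage B to stage A was 1.13 (0.750 to 1.76) and that of stage A to stage C was 1.36 (0.844 to 2.14), so neither pair was separated by counting error. Stage E exceeded stage D by 1.87-fold (1.59 to 2.21), and stage D exceeded stage B by 2.57-fold (2.03 to 3.28).

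ETC1, a close relative of CPC that overlaps with it in trichome and root hair patterning, had its peak where the other 3 genes had their lowest level. It stood at 12.3 RPM in stage A, 28.4 RPM in stage B, 40.2 RPM in stage C, 11.2 RPM in stage D and 18.6 RPM in stage E, from 73 to 574 reads. Stages B and C were high, and stages A and D low. Stage C exceeded stage B by 1.42-fold (1.25 to 1.60), while stages A and D had a ratio of 1.09 (0.822 to 1.44), within counting error. Without stage C, the highest stage of ETC1 was stage B. Among 15603 genes that reached 5 RPM, 32.5% had their lowest value in stage C and 23.8% their highest. These shares followed the chromosome of the locus: 17.9% of genes on chromosome 1 were lowest in stage C and 38.0% highest, against 46.7% and 12.1% on chromosome 5.

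**Figure D1:**
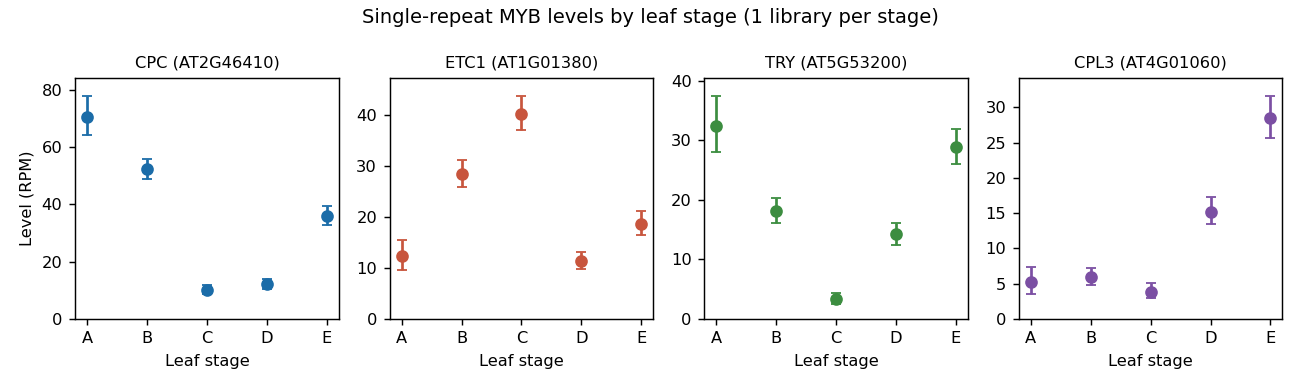
Level of each gene (vertical axis, RPM, starting at 0) in the 5 leaf stages (horizontal axis). Each point is 1 library and the bar is the exact 95% Poisson interval of its reads. CPC, TRY and CPL3 are lowest in stage C, at 10.1, 3.29 and 3.85 RPM, where ETC1 is highest at 40.2 RPM.

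The read mix among the 4 genes does not depend on how libraries are scaled, and it turned over across the series. The chromosome skew of stage C can enter the stage C shares, and its part in them was not tested. CPC gave 58.6% (54.9 to 62.2, exact Clopper-Pearson) of the summed reads in stage A and 32.1% (29.7 to 34.6) in stage E. CPL3 went from 4.32% (2.96 to 6.08) in stage A to 28.8% (25.8 to 32.0) in stage D and 25.5% (23.3 to 27.8) in stage E. TRY gave 26.9% in stage A, 17.3% (15.6 to 19.2) in stage B and 5.72% (4.24 to 7.54) in stage C. Its shares in stages D and E, 27.0% and 25.8%, had intervals that overlapped that of stage A. From stage A to stage E, ETC1 gave 10.2%, 27.1%, 69.9%, 21.3% and 16.6% of the reads. The summed level of the 4 genes was 121 RPM in stage A, 105 RPM in stage B, 57.5 RPM in stage C, 52.8 RPM in stage D and 112 RPM in stage E. Stages A and E had close sums with a different read mix.

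Between undifferentiated leaves and leaves with salt glands, 1 of the 4 genes was called, ETC1, at 2.31-fold (1.80 to 3.0) higher in stage B. By the same rule 10.6% of all tested genes were called, 7.47% of them higher and 3.1% lower. The log2 difference of ETC1 was 1.14. It was 1.0 with median-of-ratios scaling over all genes with reads in every stage, and 0.99, no longer called, when that scaling used only genes at 1 RPM or more in every stage. With the first scaling 9.75% of all tested genes were called. A stricter call, based on the lower end of the interval of the fold reaching 2, took 0 of the 4 genes and 6.72% of all tested genes. TRY was 1.79-fold (1.49 to 2.16) and CPC 1.35-fold (1.20 to 1.52) lower in stage B, which did not reach the rule, and CPL3 differed by less than counting error.

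In leaves with stomata, CPC and TRY were far below their values in leaves with salt glands. In stage C against stage B, CPC and TRY were called lower, at 5.15-fold (4.31 to 6.18) and 5.51-fold (4.04 to 7.66), and no member was called higher. The rule called 38.3% of all tested genes in this comparison, 15.3% higher and 23.0% lower. Because stage C was skewed by chromosome, each gene was set beside the 20 tested loci next to it in Arabidopsis locus order, which need not be neighbours in Limonium. The 20 loci around CPC had a median log2 difference of 0.03, and the lowest of them was -1.53, above CPC at -2.26. The 20 loci around TRY had a median of -1.11, and 11 of them were called lower and 0 higher. TRY at -2.16 was at -1.04 relative to that median, but lay within the range of these loci, the lowest of which was -3.07. The 20 loci around ETC1 had a median of 0.99, and 9 of them were called higher and 0 lower. ETC1 itself was at 0.49, which is -0.51 relative to these loci. CPL3, at -0.51, lay close to the median of -0.59 of the loci around it.

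**Figure D2:**
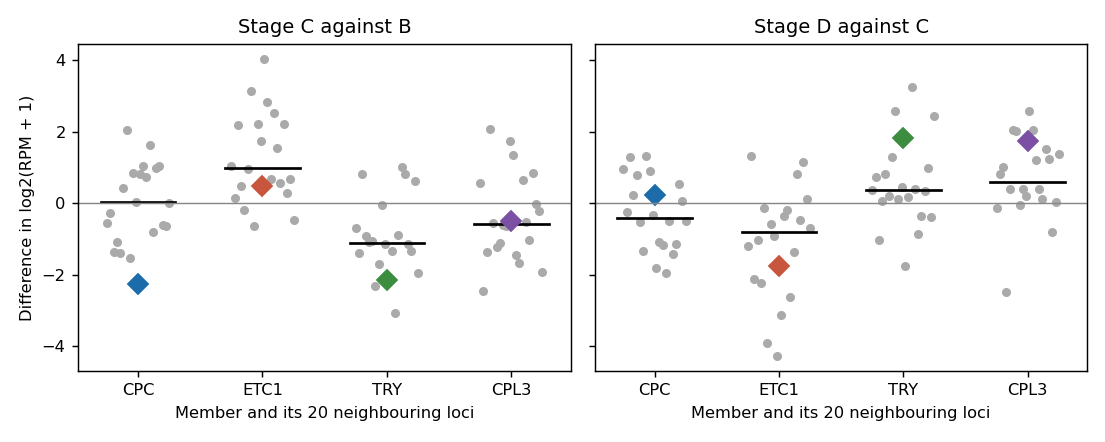
Difference in log2(RPM + 1) between stages (vertical axis) for each of the 4 genes (coloured diamonds), the 20 tested loci around it in Arabidopsis locus order (grey points) and their median (black line). In stage C against B the loci around ETC1 are shifted up, with a median of 0.99, and those around TRY down, with a median of -1.11, while CPC lies below all 20 of its neighbours.

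From leaves with stomata to leaves with a differentiated epidermis the directions turned. TRY was 4.33-fold (3.15 to 6.05) and CPL3 3.95-fold (2.94 to 5.39) higher in stage D, and ETC1 was 3.57-fold (3.02 to 4.24) lower, so 3 of the 4 genes were called. Of all tested genes 37.0% were called, 17.4% higher and 19.5% lower. CPC differed by 1.19-fold (0.957 to 1.49), within counting error. Relative to the median of their 20 neighbouring loci, TRY was at 1.46, CPL3 at 1.13 and ETC1 at -0.94 on the log2 scale, so ETC1 no longer reached the rule. For these genes a developmental change and the chromosome skew of stage C cannot be told apart.

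Stage D was compared directly with stage B as well, which leaves stage C out. CPC was 4.32-fold (3.70 to 5.07) lower in stage D, ETC1 was 2.53-fold (2.13 to 3.01) lower and CPL3 was 2.57-fold higher. The 3 calls among 4 genes stand beside 30.0% of all tested genes, 10.5% higher and 19.5% lower. TRY, at 18.1 and 14.2 RPM, did not reach the rule. All tested genes had a median log2 difference of -0.29. Relative to it, CPC was at -1.74, ETC1 at -0.98, TRY at -0.04 and CPL3 at 1.52. The call of ETC1 was lost with median-of-ratios scaling, at -0.89, while CPC at -1.65 and CPL3 at 1.58 were still called, beside 26.8% of all tested genes. The call of CPL3 was lost with a pseudocount of 5, at 0.89, and with a minimum of 20 RPM.

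In the mature leaf all 4 genes had higher values than in stage D. CPC was called, at 2.97-fold (2.51 to 3.52), and TRY at 2.02-fold (1.71 to 2.39), CPL3 at 1.87-fold and ETC1 at 1.66-fold (1.36 to 2.02) were not. The rule called 19.7% of all tested genes, 13.1% higher and 6.65% lower, and the median of all genes was 0.28. Relative to that median the log2 differences were 1.22 for CPC, 0.69 for TRY, 0.58 for CPL3 and 0.40 for ETC1.

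Between the undifferentiated and the mature leaf, the ends of the series, CPL3 was called, 5.46-fold (3.78 to 8.16) higher in stage E. The other 3 genes were not called, beside 32.3% of all tested genes, 18.6% higher and 13.7% lower. CPC was 1.97-fold (1.72 to 2.25) lower in stage E, just under the rule at a log2 difference of -0.96. It was called with median-of-ratios scaling, at -1.07, beside 32.0% of all tested genes. ETC1 was 1.51-fold (1.16 to 2.0) higher, and TRY differed by less than counting error.

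**Figure D3:**
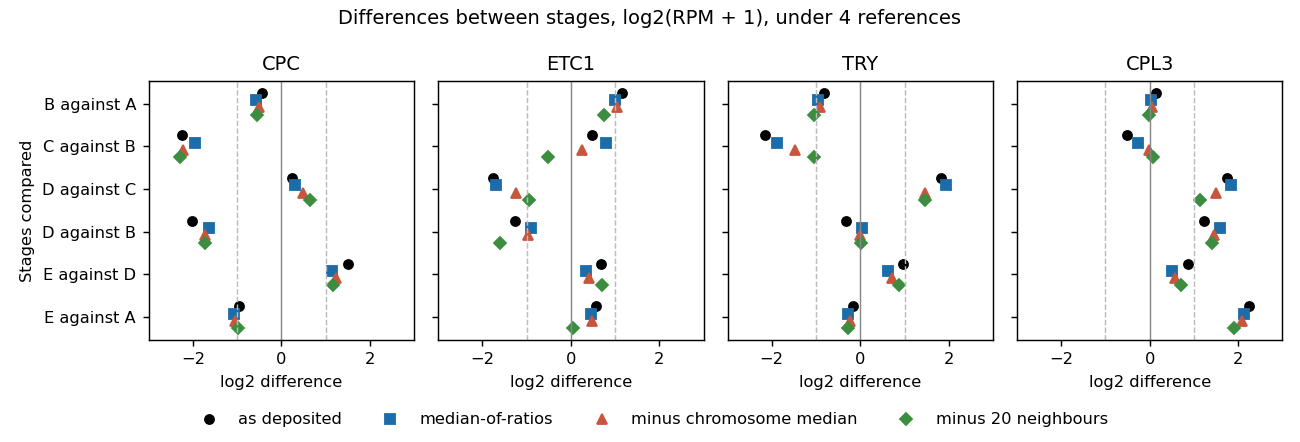
Log2(RPM + 1) difference of each gene (horizontal axis, later minus earlier stage) in the 6 comparisons (vertical axis), as deposited, after median-of-ratios scaling, minus the median of tested genes on the same Arabidopsis chromosome and minus the median of the 20 neighbouring loci. Dashed lines mark the rule of 1; in stage C against B, TRY and ETC1 move most between references, while CPC stays between -2.28 and -1.96.

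The R2R3 MYB activators GL1, WER and MYB23 were all called lower in stage E than in stage A, beside 13.7% of all tested genes. MYB82 on the same list was called lower as well, and MYB5 was not. None of the 4 repressors was called lower, which with 4 genes is not read as a difference from that share. After median-of-ratios scaling CPC was, beside 15.6% of all tested genes called lower. Between these stages the ratio of repressor to activator reads moved mainly through GL1, WER and MYB23. GL1, WER and MYB23 together stood at 305 RPM in stage A, 122 RPM in stage B, 24.4 RPM in stage C, 67.0 RPM in stage D and 15.6 RPM in stage E. The ratio of summed repressor reads to summed activator reads was 0.396 (0.363 to 0.432) in undifferentiated leaves, 0.861 (0.807 to 0.919) with salt glands, 2.36 (2.08 to 2.68) with stomata, 0.788 (0.720 to 0.862) with a differentiated epidermis and 7.17 (6.18 to 8.35) in mature leaves. Gene lengths enter this ratio and longer genes weigh more in its sums, so its height is not read. Its change between stages does not depend on the scaling of libraries, but the chromosome skew of stage C can enter it. ETC1 is a locus of chromosome 1, and WER and MYB23 are loci of chromosome 5. The part of the skew in the stage C value was not tested. In stage E the ratio was 18.1-fold (15.2 to 21.6) above stage A and 9.10-fold (7.64 to 10.9) above stage D. Between stages A and E the summed activators were 19.5-fold (16.9 to 22.7) lower, while the summed repressors differed by less than counting error, so a gene with the same level in both stages would have a ratio 19.5-fold higher in stage E.

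In stage B the ratio over the 3 activators was 2.17-fold (1.95 to 2.42) above stage A with all 4 repressors and 1.76-fold without ETC1. The stage C value turned on ETC1: without it the ratio was 0.710 (0.601 to 0.838) in stage C, close to 0.628 in stage B and 0.620 in stage D.

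Against the bHLH partners GL3 and EGL3, which activators and repressors both bind, the course was different. The ratio of summed repressors to GL3 and EGL3 was 3.5 (2.99 to 4.11) in undifferentiated leaves, 1.71 (1.58 to 1.85) with salt glands, 2.30 (2.03 to 2.61) with stomata, 2.16 (1.92 to 2.44) with a differentiated epidermis and 4.81 (4.25 to 5.46) in mature leaves. It was 2.04-fold (1.71 to 2.44) lower in stage B than in stage A, the opposite direction to the ratio over the activators. Between stages A and E it differed by 1.38-fold (1.12 to 1.69). Relative to TTG1, the WD40 partner, it was 12.6 (9.60 to 16.8) in stage A and 17.7 (14.1 to 22.3) in stage E, with intervals that overlapped, and lowest in stage D at 8.47 (6.89 to 10.5).

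**Figure D4:**
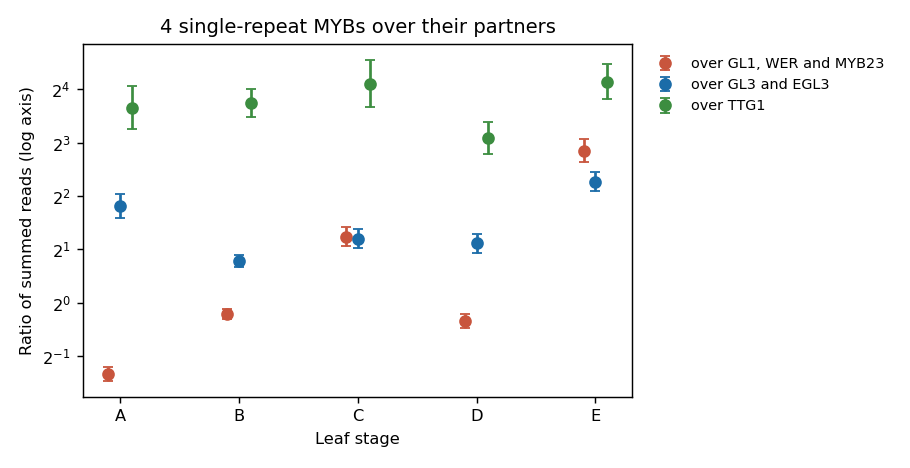
Ratio of the summed reads of CPC, ETC1, TRY and CPL3 to those of their partners (vertical axis, log scale) in the 5 leaf stages (horizontal axis). Each point is 1 library with its exact 95% interval; the ratio over GL1, WER and MYB23 goes from 0.396 in stage A to 7.17 in stage E, and the ratio over GL3 and EGL3 from 3.5 to 4.81.

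The table held other MYB repressors as well. ETC2 and TCL1, which restrain trichomes in Arabidopsis leaves and stems, stayed between 1.83 and 9.43 RPM and between 4.15 and 7.96 RPM. TCL2, from the same Arabidopsis gene cluster, had 32 reads in stage C and 2 to 7 reads in each other stage, never reaching 5 RPM. ETC2 was called lower in stage D than in stage B, at 2.83-fold (1.85 to 4.45), and higher in stage E than in stage D, at 3.20-fold (2.07 to 5.06). The first of these calls was lost with median-of-ratios scaling, at -0.84 on the log2 scale. MYBL2, a MYB repressor of flavonoid synthesis, was at 15.5 RPM in stage A, 9.48 RPM in stage B, 3.43 RPM in stage C, 6.42 RPM in stage D and 16.4 RPM in stage E, lowest in stage C like TRY. How reads that fit several close relatives were assigned is not given in the sources used here, so values of single loci are uncertain. Summing the reads of all 7 single-repeat loci gave 137 RPM in stage A, 115 RPM in stage B, 67.9 RPM in stage C, 58.9 RPM in stage D and 126 RPM in stage E, a course like that of the 4 genes alone.

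**Figure D5:**
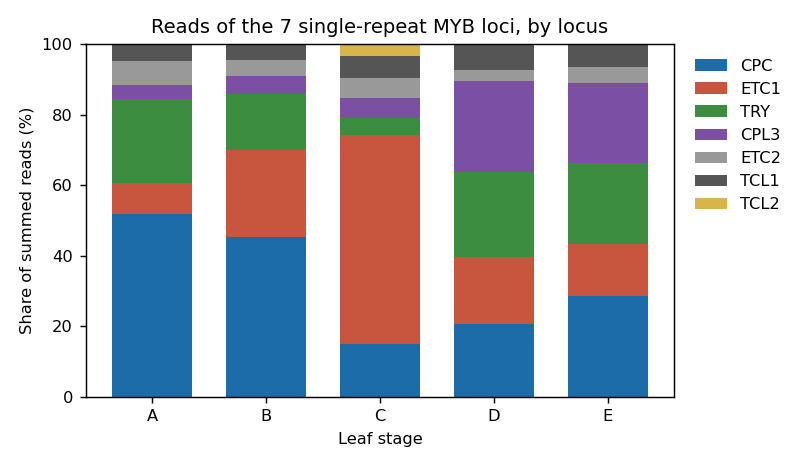
Share of the summed reads (vertical axis, percent) of the 7 single-repeat MYB loci taken by each locus in the 5 leaf stages (horizontal axis). CPC gives 51.7% in stage A and 28.5% in stage E, CPL3 3.82% and 22.6%, and ETC1 reaches 59.2% in stage C.

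Of 30 other genes of the trichome and root hair network, 21 were measured and 20 of them reached 5 RPM. From stage A to stage B, 0 were called higher and 3 lower, which were GL1, WER and MYB23, beside 7.47% and 3.1% of all tested genes. From stage B to stage C, 1 was called higher and 9 lower, beside 15.3% and 23.0% of all tested genes, and 1 and 5 after median-of-ratios scaling, which called 36.1% of all tested genes. GL3 and TTG1 were among the 9, and the gene that was higher was SCM, a receptor-like kinase that in the Arabidopsis root biases the patterning network by cell position. SCM was 2.29-fold (1.90 to 2.77) higher in stage C than in stage B and 5.89-fold (4.50 to 7.80) lower in stage D than in stage C. Like ETC1 it is a locus of chromosome 1, and relative to its 20 neighbouring loci it was at 0.06 in stage C against B. From stage C to stage D, 3 were called higher and 3 lower, beside 17.4% and 19.5% of all tested genes. From stage D to stage E 3 were called higher and 3 lower, beside 13.1% and 6.65% of all tested genes. With scaling 1 was called higher and 4 lower, beside 6.13% and 10.2% of all tested genes. In stage D against stage B, 0 were called higher and 11 lower, beside 10.5% and 19.5% of all tested genes. After scaling these counts were 0 and 5, beside 15.3% and 11.5% of all tested genes. Among the 11 were the bHLH genes GL3, EGL3, TT8 and MYC1, of which TT8 and MYC1 were still called after scaling and GL3 at -0.96 and EGL3 at -0.78 were not. From stage A to stage E, 1 was called higher and 6 lower, beside 18.6% and 13.7%. The gene that was higher was JKD, a zinc finger protein that acts upstream of epidermal patterning in the Arabidopsis root. It went from 19.2 to 57.8 RPM, 3.01-fold (2.47 to 3.70). GL2, the target on which the network converges, stood at 13.0 RPM in stage A, 13.3 RPM in stage B, 11.3 RPM in stage C, 3.48 RPM in stage D and 7.72 RPM in stage E. The median log2 difference of the 21 genes was -0.53 between stages A and E, beside 0.09 over all tested genes, and that of the 4 repressors was 0.20.

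The genes with the most similar courses were sought among 14084 described genes that reached 5 RPM, by the root mean square difference of stage-centred log2(RPM + 1) values over the 5 stages. With 5 points and this many genes, close matches are numerous, and without stage C at most 1 of the 3 nearest genes was the same for each of the 4. Nearest to CPC was pumilio 23 (AT1G72320), an RNA-binding protein, at a difference of 0.09 log2 units. It stood at 181, 119, 22.4, 28.7 and 83.2 RPM from stage A to stage E. The next nearest were the RNA-binding proteins described as evolutionarily conserved C-terminal region 4 (AT1G55500) and 1 (AT3G03950), both at 0.10. Nearest to TRY were a ubiquitin-like superfamily protein (AT3G13970) at 0.06, the co-repressor SIN3-like 2 (AT5G15020) at 0.08 and a ubiquitin-associated protein (AT3G56740) at 0.11. Nearest to CPL3 was the proton pump H(+)-ATPase 4 (AT3G47950), at 0.08. Without stage C it was second, at 0.03, after UDP-D-glucuronate 4-epimerase 5 (AT4G12250) at 0.02. That pump stood at 225 RPM in stage A, 249 RPM in stage B, 151 RPM in stage C, 591 RPM in stage D and 1023 RPM in stage E. EIN3-binding F box protein 2 (AT5G25350), which marks the ethylene-signalling factor EIN3 for breakdown, followed at 0.09 and NAC domain containing protein 102 (AT5G63790) at 0.12. Nearest to ETC1 were a P-loop nucleoside triphosphate hydrolase (AT5G08610) at 0.10, ornithine carbamoyltransferase (AT1G75330), an enzyme of arginine synthesis, at 0.14 and a tetratricopeptide repeat protein (AT2G31240) at 0.16.

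The 4 genes were also set beside each other by the same measure. The nearest genes above were picked as the closest of 14084, so larger distances among the members are not read as a result. CPC and TRY were the nearest pair, at 0.66 log2 units, and 12.3% of the 14084 genes were nearer to CPC than TRY was. From the side of TRY, 12.5% were nearer than CPC was. Without stage C the pair was again at 0.66, but these shares were 24.9% and 53.3%. ETC1 was at 1.41 from CPC, 1.42 from CPL3 and 1.60 from TRY, and without stage C these were 0.85, 1.1 and 0.70. CPL3 was at 1.48 from CPC and 1.04 from TRY, and without stage C at 1.64 and 1.05. The widest pair was thus ETC1 and TRY over all stages, and CPC and CPL3 without stage C. Of the network genes, SCM was nearest to ETC1 at 0.30, MYBL2 to TRY at 0.40 and JKD to CPL3 at 0.54. TTG2, a WRKY factor of trichome and seed coat development, was nearest to CPC at 0.55. Of the 14084 genes, 0.809% were nearer to ETC1 than SCM was and 2.63% nearer to TRY than MYBL2 was. For JKD and CPL3 this share was 5.5%, and for TTG2 and CPC 6.58%. Without stage C, SCM was still nearest to ETC1, MYBL2 to TRY and JKD to CPL3. GL2 was then nearest to CPC, at 0.30, and TTG2 was seventh. The shares of nearer genes were then 3.67% for SCM, 0.462% for MYBL2, 6.89% for JKD and 2.12% for GL2.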

How the data were processed

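The deposited table gives 1 value per gene and stage, and the name of each of the 5 columns gave its stage. Per the file headers the unit is RPKM, but within every column 100% of the deposited values were an integer number (to 0.001 reads) of the same small unit. The values are therefore RPM, which the authors had not divided by gene length, and whole reads were recovered from them. No count test was run, since 1 library per stage leaves no replicate error. Which aligner and assembly were used is not given in the sources used here.

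Differences were taken on log2(RPM + 1) over the whole table. Intervals of folds and shares are Clopper-Pearson, those of levels Poisson and those of a change in a ratio conditional exact; amplified reads are not independent molecules. Median-of-ratios scaling used 17206 genes with reads in every stage, or 14179 at 1 RPM or more in every stage. Other alternatives were 0.1 or 5 as the pseudocount, 20 RPM or nothing as the minimum, a 4-fold rule, centring on the chromosome or on neighbouring loci, and the stricter count-based call. Neighbouring loci, the scaling at 1 RPM or more, the sum over 7 loci, likeness without stage C, and the ratio to TTG1 were chosen after the data had been seen. Named are the 4 members, called genes of the network list and the 3 nearest genes of each member. TCL1, TCL2, expansin A7, RSL4, COBL9 and the gene nearest to CPL3 without stage C were named after their values had been seen. The same holds for the guard cell markers FAMA, HT1, KAT1 and MYB60. The members and lists were chosen with earlier results of these data known. The rule was checked on simulated data, with 4-fold changes in genes at 20 RPM or more in the earlier stage and counting error only. Changes of smaller fold or at lower levels, and the chromosome skew, were not covered by that check. Python 3.11.15, NumPy 2.4.6, pandas 2.3.3, SciPy 1.17.1 and Matplotlib 3.10.9 were used.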

Additional observations from a re-analysis of the deposited data

How the results depend on the processing

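No paired analysis was possible because each stage is 1 library. Of the 24 differences of single members between stages, 0 turned direction among called ones under any pseudocount, scaling or centring. Among those not called, some changed sign. Relative to neighbouring loci, in stage C against B, ETC1 went from 0.49 to -0.51 and CPL3 from -0.51 to 0.07. With median-of-ratios scaling TRY in stage D against B went from -0.33 to 0.04. Beyond counting error, 10 of the 24 moved with either median-of-ratios scaling, 10 with a pseudocount of 5 and 0 with a pseudocount of 0.1. With the chromosome median 13 moved, and with neighbouring loci 14. The number of members called in stage B against A went from 1 to 0 with a pseudocount of 5, with the 4-fold rule, with the count-based call and with scaling over genes at 1 RPM or more. Relative to neighbouring loci it was 1, but that gene was TRY, at -1.05, in place of ETC1. With a minimum of 20 RPM it was 1 in place of 2 in stage C against B and 1 in place of 3 in stage D against C. A pseudocount of 5 and the minimum of 20 RPM each left 2 in place of 3 in stage D against B, without CPL3. The 4-fold rule gave 0 in stage D against C, 1 in place of 3 in stage D against B and 0 in stage E against D. A pseudocount of 0.1 added TRY in stage E against D, giving 2. Either scaling, and centring on the chromosome, added CPC in stage E against A, giving 2. No share of all genes called is given here for the pseudocounts, minimum, 4-fold rule or centrings. Nor is it given for scaling over genes at 1 RPM or more. A change in these counts is therefore not read as particular to the members. The log2 change of the ratio of the repressors to GL1, WER and MYB23 was 1.12 in stage B against A, and -1.03 with GL3 and EGL3 as the denominator, the reversed case. With that denominator it was 0.43 in place of 1.45 in stage C against B, -0.090 in place of -1.58 in stage D against C, 0.33 in place of -0.13 in stage D against B, 1.16 in place of 3.19 in stage E against D and 0.46 in place of 4.18 in stage E against A. Without ETC1 it was 0.82 in stage B against A, 0.18 in stage C against B and -0.20 in stage D against C. The denominator alternative is a different gene pair; the cause of the other shifts was not tested. Depth limited CPL3 in stage A and TRY and CPL3 in stage C, which rested on 31, 47 and 55 reads.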
